A study of Arabidopsis thaliana with 48 samples.

Results

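The ZAT and AZF genes of Arabidopsis thaliana described here encode C2H2 zinc finger proteins that repress transcription. They were chosen by name as the rows ZAT5 (AT2G28200), ZAT6 (AT5G04340), ZAT7 (AT3G46090), ZAT10 (AT1G27730, also called STZ), ZAT11 (AT2G37430), ZAT12 (AT5G59820, also called RHL41), ZAT18 (AT3G53600), AZF1 (AT5G67450), AZF2 (AT3G19580) and AZF3 (AT5G43170), which are 10 of the 32833 genes listed. Their transcripts were measured by RNA sequencing in leaves of 4-week-old, soil-grown plants kept under 10 h of light and 14 h of dark. The 16 groups combined the wild type Col-0 (Col) or a myb30 knockout, local leaves treated with high light (called lit here) or systemic leaves labelled as untreated (called unlit), and 0, 2, 8 or 30 min, with 3 libraries in each group and 48 in all. MYB30 is an R2R3-MYB transcription factor, its knockout is a single line whose allele was not given in the sources used here, and the repeats were composed from plants pooled out of 20 stated for each genotype and time. For all 6 Col libraries titled 30 min the time label reads 0 min, so every Col result at 30 min rests on the titles. Nothing in the labels says how far the libraries of a group are independent, so a p-value speaks of the variation among these libraries alone, which may be technical.

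Proteins of this family carry a pair of plant-type zinc fingers, each with the invariant core QALGGH that contacts DNA, and most end in an EAR repression motif, for which DLNL is one core, that recruits co-repressors of the TOPLESS family. Several of the genes are among the fastest transcripts to accumulate after wounding, cold, salt, reactive oxygen or excess light. ZAT12 and ZAT10 are classic reporters of reactive oxygen and of high light in this plant, and both have been tied to the expression of cytosolic ascorbate peroxidases, the enzymes that remove hydrogen peroxide. ZAT6 is known from phosphate homeostasis and cadmium tolerance, ZAT7 from salt tolerance, ZAT11 from nickel tolerance and cell death, and ZAT18 from drought tolerance. AZF1 and AZF2 repress auxin-inducible SAUR growth genes under osmotic stress and abscisic acid. In systemic acquired acclimation, leaves outside the light also change transcripts within minutes, and ZAT transcripts are used to follow that signal.

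All 10 genes have a single exon in the RefSeq TAIR10.1 annotation, and every predicted protein holds 2 copies of QALGGH. An exact DLNL was found in 5 of 10 proteins, ZAT5, ZAT11, ZAT18, AZF1 and AZF2. The 250 bases upstream of the annotated start are printed for the 3 genes that rose together within minutes (ZAT6, ZAT12 and ZAT10), for a gene that rose late (ZAT18) and for one that did not pass in any comparison (AZF3). They are TAIR10.1 sequence from RefSeq, 5′ to 3′ on the gene's own strand. Capitals mark every match, on either strand, to the rapid stress response element CGCGTT, the W-box core TTGAC, the abscisic acid and G-box core ACGTG or the heat shock element core GAANNTTC. The windows are, in order, chr5:1217363-1217612 on the minus strand, chr5:24102564-24102813 on the plus strand, chr1:9649324-9649573 on the minus strand, chr3:19875125-19875374 on the plus strand and chr5:17331647-17331896 on the minus strand.
ZAT6: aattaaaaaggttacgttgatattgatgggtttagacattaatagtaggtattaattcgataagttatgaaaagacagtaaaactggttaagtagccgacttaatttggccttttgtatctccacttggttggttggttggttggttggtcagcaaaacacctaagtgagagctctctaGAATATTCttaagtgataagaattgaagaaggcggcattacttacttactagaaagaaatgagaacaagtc
ZAT12: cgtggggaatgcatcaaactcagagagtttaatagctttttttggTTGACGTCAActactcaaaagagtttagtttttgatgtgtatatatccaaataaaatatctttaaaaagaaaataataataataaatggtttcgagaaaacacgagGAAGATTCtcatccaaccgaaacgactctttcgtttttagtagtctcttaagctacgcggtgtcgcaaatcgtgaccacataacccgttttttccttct
ZAT10: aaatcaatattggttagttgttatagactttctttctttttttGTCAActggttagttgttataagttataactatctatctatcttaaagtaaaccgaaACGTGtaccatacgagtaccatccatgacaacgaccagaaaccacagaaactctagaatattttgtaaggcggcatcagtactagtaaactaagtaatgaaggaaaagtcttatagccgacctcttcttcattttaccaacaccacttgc
ZAT18: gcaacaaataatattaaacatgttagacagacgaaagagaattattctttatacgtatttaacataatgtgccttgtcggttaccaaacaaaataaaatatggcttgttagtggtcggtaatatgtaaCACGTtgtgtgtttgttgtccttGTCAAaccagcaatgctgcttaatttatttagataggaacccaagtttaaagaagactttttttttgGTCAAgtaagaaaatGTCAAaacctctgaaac
AZF3: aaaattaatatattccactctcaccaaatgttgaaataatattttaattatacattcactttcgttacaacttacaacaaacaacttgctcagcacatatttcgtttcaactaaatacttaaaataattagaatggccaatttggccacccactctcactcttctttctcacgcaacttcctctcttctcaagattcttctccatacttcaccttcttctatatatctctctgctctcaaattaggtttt
The ZAT12 window holds 2 W-box cores side by side on opposite strands and 1 heat shock element core, the ZAT6 window holds 1 heat shock element core, and the ZAT18 window holds 3 W-box cores and 1 ACGTG. The AZF3 window holds none of the 4 sequences.

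In the longer window from 250 bases before to 50 bases after the start, the heat shock element core stood in 4 of 10 genes (ZAT6, ZAT7, ZAT11 and ZAT12), against 11.6% of 27443 nuclear genes. The W-box core stood in 9 of 10, against 50.5%, and ACGTG in 5 of 10, against 26.7%. CGCGTT stood in 0 of 10, against 3.40%. With the 250 upstream bases alone the counts were 4, 8, 2 and 0, against 9.55%, 44.9%, 22.9% and 2.59%, so 3 of the 5 genes with ACGTG held it only when bases after the start were included. ZAT10, which rose with ZAT6 and ZAT12, had no match to GAANNTTC in either window. A match describes the letters and is no measure of binding.

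Libraries held 70514715 to 89402096 reads counted in genes. Values are read counts that the authors divided by a size factor per library, called normalised counts here. Group values are means ± SD (n = 3), and changes are log2 fold changes ± standard error on the scale of log2(normalised count + 1) from limma, with p adjusted over 19556 tested genes and a threshold of 0.05. Statements that libraries do not overlap describe single genes, as the share of all genes without overlap was not computed. A gene was tested when its mean over the 48 libraries reached 10, which 9 of 10 members did. ZAT11 (mean 9.74) fell short, and ZAT18 (mean 26.9) passed only through its 30 min groups. Without ZAT18 the counts of members called at 30 min against 0 min, which are otherwise given with it, were 6, 2, 5 and 1 of 8 in Col local, Col systemic, myb30 local and myb30 systemic leaves, and those from 8 to 30 min in Col were 1 of 8 in each leaf. The leaf markers RBCS1A, RCA and LHCB1.1 summed to 2816886 to 3622593 per library and those of root and seed to 22.6 to 636. Guard cell markers fell in local leaves, from a summed 4165 ± 400 at 0 min to 2283 ± 105 at 30 min in Col, against 4507 ± 76.4 and 4340 ± 239 in systemic leaves, and their part in the results was not tested. In pooled tissue, fewer cells of a type and less RNA per cell cannot be told apart.

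A set of 3 libraries stood apart at 0 min. WRKY40, a stress factor that handling induces, stood at 1897 in Col local replicate 3, at 496 in Col systemic replicate 1 and at 3317 in myb30 systemic replicate 3, against 33.6 to 60.9 in the other 9 libraries of 0 min. The same libraries were high in ZAT10 (1562, 450 and 3020, against 77.7 to 214), and the Col local and myb30 libraries were also high in ZAT6 (400 and 851, against 112 to 215), ZAT12 (221 and 348, against 24.5 to 90.6) and AZF2 (441 and 662, against 206 to 319). ZAT5, ZAT7, ZAT11, ZAT18, AZF1 and AZF3 stood within or below the range of the other libraries there. Earlier work on these files also put the labels of Col systemic 0 min replicate 3 and myb30 systemic 0 min replicate 3 in doubt. Counts were therefore repeated without the 3 outlying libraries and with the libraries in doubt exchanged, and both are given where they moved a count by over 1.5 times. Leaving out the outlying libraries removes high 0 min values of ZAT10, ZAT6, ZAT12 and AZF2 themselves. It thereby tends to raise their changes from 0 min, so calls gained that way are not independent support. MYB30 transcripts were present in both genotypes, at 244 to 1039 in Col and 176 to 818 in myb30 libraries, and reads over the whole gene do not check the allele.

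Per 1000 bases of exon and averaged over the 48 libraries, ZAT10 was the most abundant member (1829), ahead of ZAT6 (1044), ZAT5 (609), ZAT12 (510), AZF2 (420), ZAT7 (200), AZF3 (168), AZF1 (110), ZAT18 (33.5) and ZAT11 (10.4). The order at rest was different. In Col local leaves at 0 min ZAT5 led at 849 per 1000 bases, ahead of ZAT10 (448) and AZF2 (233), and the ZAT10 level there rested on Col local 0 min replicate 3. At 30 min in the same leaves ZAT6 (3626) and ZAT10 (3433) stood above ZAT12 (1631) and ZAT5 (924). Across groups the span between the lowest and the highest mean was 46.7-fold for ZAT10, 31.2-fold for ZAT12 and 30.8-fold for ZAT6, against 6.49-fold for ZAT5, 4.77-fold for AZF1, 4.48-fold for AZF2 and 1.40-fold for AZF3.

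**Figure D1:**
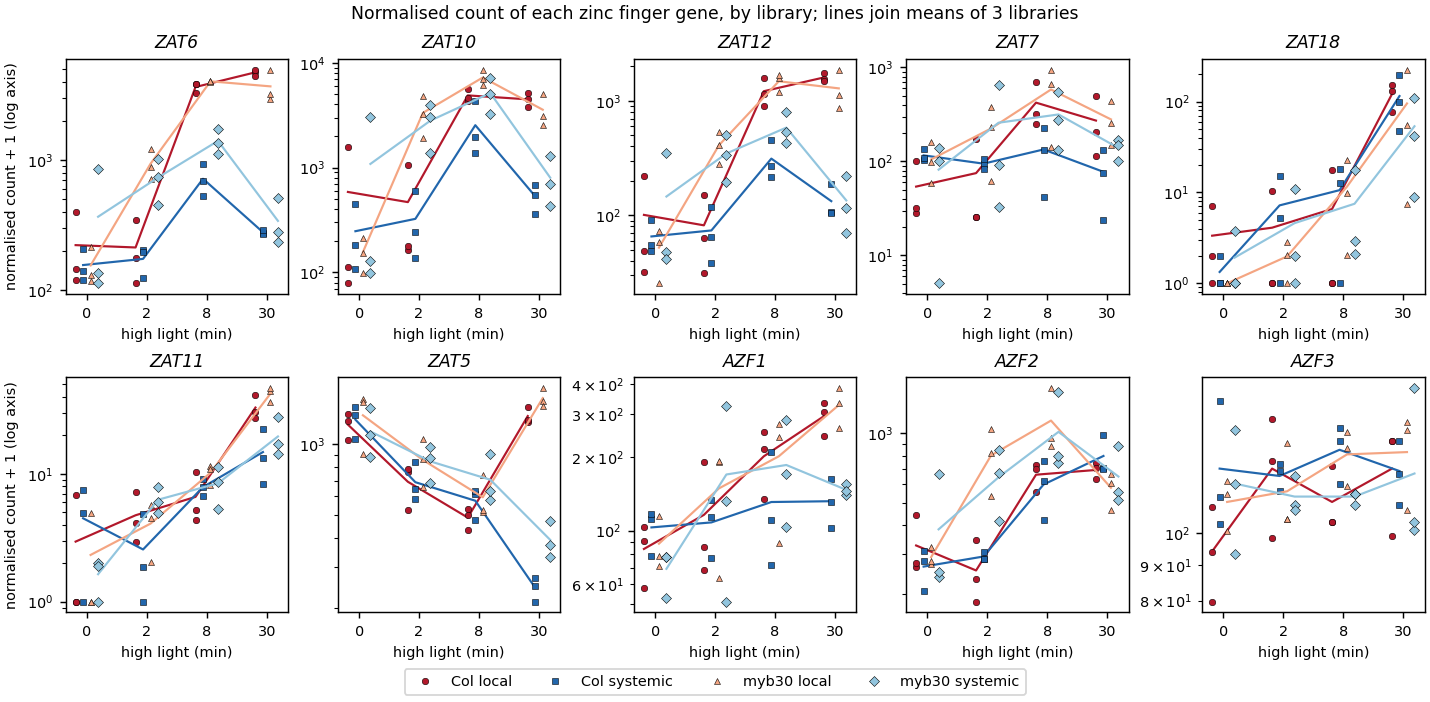
Normalised count plus 1 (log axis, a separate range in each panel) of the 10 genes against minutes of high light, with 1 point per library and lines through the means of 3 libraries in Col and myb30 local and systemic leaves. ZAT6, ZAT10 and ZAT12 are high in lit leaves at 8 and 30 min, ZAT18 and ZAT11 at 30 min, ZAT5 parts between leaves at 30 min, and AZF3 stays between 78.7 and 161 normalised counts in every library.

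ZAT6, ZAT10 and ZAT12 rose strongly in wild-type leaves between 2 and 8 min of high light and were still high at 30 min. ZAT6 stood at 118, 145 and 400 in the Col local libraries of 0 min, at 346, 113 and 176 at 2 min, at 3816, 3300 and 3830 at 8 min, and at 4785, 4461 and 4952 at 30 min. All libraries of 8 and 30 min lay above all of 0 min, while those of 2 min overlapped them. The change was 0.00 ± 0.474 at 2 min, 4.25 ± 0.474 at 8 min (adjusted p = 1.49e-08) and 4.63 ± 0.474 at 30 min (adjusted p = 2.32e-10). ZAT10 stood at 77.7, 111 and 1562 at 0 min, at 1062, 163 and 176 at 2 min, at 5659, 4329 and 4651 at 8 min, and at 5140, 3761 and 4518 at 30 min. Its 8 and 30 min libraries lay above all of 0 min, the outlying one included, and the change was 4.34 ± 0.895 (adjusted p = 0.000474) and 4.21 ± 0.895 (adjusted p = 0.000154). ZAT12 went from 31.3, 47.5 and 221 at 0 min to 1152, 903 and 1588 at 8 min and 1752, 1555 and 1493 at 30 min, again without overlap, with changes of 4.07 ± 0.632 (adjusted p = 1.09e-05) and 4.51 ± 0.632 (adjusted p = 2.11e-07). ZAT12 at 2 min (151, 30.1 and 61.8) overlapped 0 min. In ratios of means the 8 min levels were 16.5-fold (ZAT6), 8.36-fold (ZAT10) and 12.2-fold (ZAT12) those of 0 min. They rest on Col local 0 min replicate 3, without which the log2 changes at 8 min were 4.79 for ZAT6, 5.69 for ZAT10 and 4.90 for ZAT12. Without that library the changes at 2 min were 0.54 for ZAT6, 1.74 for ZAT10 and 0.75 for ZAT12, and none passed at 2 min under any alternative. All 6 changes of these genes at 8 and 30 min passed under each of their 15 alternatives.

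Counted over the family in Col local leaves, 1 of 9 tested members passed at 2 min (ZAT5, lower), against 10.7% of all tested genes. At 8 min 6 of 9 passed (5 higher and 1 lower), against 26% of all genes, and at 30 min 7 of 9 (all higher), against 53.7%. The median change over the 9 was 0.00, 1.26 and 2.33 at the 3 times. That of all genes was near 0.00 at each, where the size factors tend to place it, so it is no measured background. The count at 2 min was 0 without Col local 0 min replicate 2 and without Col local 2 min replicate 3.

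The unlit systemic leaves of Col also had more ZAT6, ZAT10 and ZAT12 transcript at 8 min, and at 30 min none of the 3 passed against 0 min. ZAT10 stood at 450, 106 and 181 at 0 min, at 591, 136 and 241 at 2 min, at 4272, 1361 and 1971 at 8 min, and at 686, 542 and 363 at 30 min. Only the 8 min libraries lay clear of 0 min, with a change of 3.45 ± 0.895 (adjusted p = 0.00557), or 10.3-fold in means. Without Col systemic 0 min replicate 1 it was 4.01. ZAT6 went from 208, 118 and 140 at 0 min to 933, 531 and 690 at 8 min (2.20 ± 0.474, adjusted p = 0.00120), and stood at 275, 270 and 289 at 30 min. Those 30 min values of ZAT6 lay above all of 0 min, but the change of 0.88 ± 0.474 did not pass (adjusted p = 0.153). ZAT12 went from 54.5, 48.1 and 90.6 to 451, 216 and 268 at 8 min (2.24 ± 0.632, adjusted p = 0.0102) and 186, 106 and 103 at 30 min (1.02 ± 0.632, adjusted p = 0.217). Without the 3 outlying libraries, ZAT6 (adjusted p = 0.0156) and ZAT10 (adjusted p = 0.0195) passed in Col systemic leaves at 30 min. Col systemic 0 min replicate 1 was the highest of its group in both genes, so its removal raised these changes.

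Of the 9 tested members in Col systemic leaves, 1 passed at 2 min (against 11.8% of all genes), 5 at 8 min (against 22.4%) and 3 at 30 min (against 34.7%). The median change was 0.08, 1.16 and 0.88. The 5 of 8 min were ZAT6, ZAT10, ZAT12 and AZF2, which rose, and ZAT5, which fell. Among the 3 of 30 min AZF2 rose and ZAT5 fell. The other was ZAT18, which reached the filter only through its 30 min groups, so its call is no support. Without ZAT18 the count was 2 of 8. The count at 2 min was 0 without Col systemic 2 min replicate 3, and that at 8 min was 3 without Col systemic 8 min replicate 1, which had the highest ZAT6, ZAT10 and ZAT12 of its group, and 2 with the libraries in doubt exchanged. At 30 min it was 5 without the 3 outlying libraries. The 7 touch and handling genes summed to 7675 ± 2126 at 0 min, 18088 ± 6819 at 8 min and 18243 ± 7200 at 30 min in these leaves. From 8 to 30 min 1 of the 7 rose and 2 fell, against 8.2% of all genes called in either direction. Their median was -0.65, against -0.80 over the 9 members, and the part of the touch and handling genes in these results was not tested.

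In local leaves of myb30 plants the same 3 genes had already risen at 2 min. ZAT10 stood at 97.8, 214 and 153 in myb30 local leaves at 0 min, at 4800, 1920 and 3242 at 2 min, at 8571, 6984 and 6147 at 8 min, and at 3097, 5055 and 2537 at 30 min. The change against 0 min was 4.39 ± 0.895 at 2 min (adjusted p = 0.00558), 5.59 ± 0.895 at 8 min (adjusted p = 2.03e-05) and 4.52 ± 0.895 at 30 min (adjusted p = 7.85e-05). The 8 min mean was 46.7-fold that of 0 min. ZAT6 went from 116, 215 and 130 to 1208, 720 and 882 at 2 min (2.62 ± 0.474, adjusted p = 0.00175), and ZAT12 from 24.5, 57.9 and 71.4 to 538, 279 and 407 (3.05 ± 0.632, adjusted p = 0.00622). For all 3 genes no 2 min library overlapped 0 min. Replicate 1 was the highest of the 3 at 2 min in each gene, and without it ZAT10, ZAT12 and AZF2 no longer passed and the count of members fell from 4 to 1.

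In myb30 local leaves 4 of 9 members passed at 2 min, all higher, against 1.66% of all tested genes. Of the 7 touch and handling genes 5 rose in the same comparison (median 3.40), their sum going from 6005 ± 651 to 22986 ± 8377, and their part in it was not tested. At 8 min 5 of 9 passed (4 higher and 1 lower), against 18.7%, and at 30 min 6 of 9, all higher, against 44.1%. The median change over the 9 was 0.86, 2.20 and 1.91. DESeq2 called 8 members at 8 min, adding ZAT7, ZAT18 and AZF1. In myb30 systemic leaves 0 of 9 passed at 2 min by limma, with 4 at an unadjusted p under 0.05 and 0 by edgeR and by DESeq2, where 0% of all genes passed. There ZAT10 stood at 97.2, 128 and 3020 at 0 min and at 3983, 1382 and 3038 at 2 min, so the groups overlapped only through the outlying library of 0 min. Without the 3 outlying libraries 4 members passed at 2 min, namely ZAT6 (2.49), ZAT10 (4.51), ZAT12 (2.85) and AZF2 (1.34), and 2 passed with the libraries in doubt exchanged. The 0 min library left out of this group was itself the highest in all 4 genes, so the calls gained without it are not independent support. Without myb30 systemic 0 min replicate 3 alone the count was 3.

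At 8 min 4 of 9 members passed in myb30 systemic leaves, against 0.88% of all genes, namely ZAT10 (3.86 ± 0.895, adjusted p = 0.0269), ZAT12 (2.67 ± 0.632, adjusted p = 0.0313), ZAT6 (2.55 ± 0.474, adjusted p = 0.00575) and AZF2 (1.50 ± 0.325, adjusted p = 0.0162). The count was 2 by edgeR and by DESeq2, and 0 without myb30 systemic 0 min replicate 1, without replicate 2 of that group and without myb30 systemic 8 min replicate 1. At 30 min 2 of 9 passed (ZAT18 higher, ZAT5 lower), against 11.6%. ZAT18 reached the filter only through its 30 min groups, and without it 1 of 8 passed. The count over all 9 was 4 without the 3 outlying libraries, 4 without myb30 systemic 0 min replicate 3 alone and 5 with the exchange. It was 1 without myb30 systemic 0 min replicate 2 or myb30 systemic 30 min replicate 1 or 2. ZAT6 fell from 1735, 1364 and 1115 at 8 min to 507, 280 and 235 at 30 min in myb30 systemic leaves, without overlap (-2.10 ± 0.474, adjusted p = 0.00999).

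**Figure D2:**
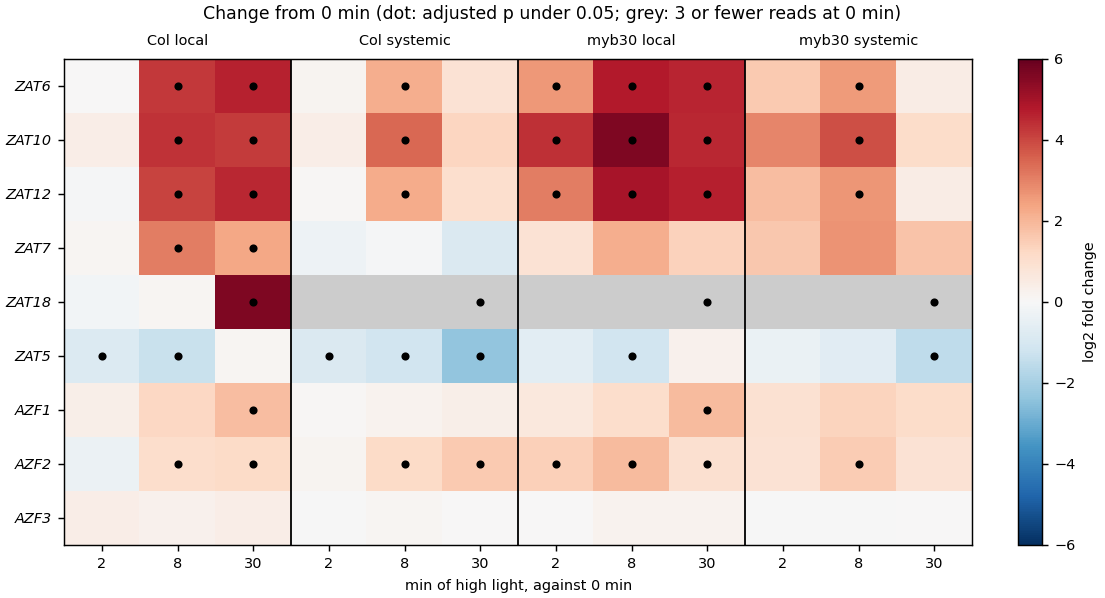
Log2 fold change against 0 min (colour) of the 9 tested members (rows) at 2, 8 and 30 min in each genotype and leaf (columns), with a dot where the adjusted p was under 0.05 and grey where 0 min held 3 or fewer reads over the group; ZAT18 reached the filter only through its 30 min groups. ZAT6, ZAT10 and ZAT12 are dotted at 8 min in all 4 blocks and at 30 min in local leaves, and at 2 min in myb30 local leaves, while ZAT5 is blue at 2 and 8 min in every block.

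Lit and unlit leaves parted between 2 and 30 min. In Col, 0 of 9 members differed between local and systemic leaves at 0 min (1 at an unadjusted p under 0.05) and at 2 min (0 at that level), by limma, edgeR and DESeq2, against 0% and 0.133% of all genes. At 8 min 2 of 9 differed, against 10.4%, both higher in local leaves: ZAT6 (2.38 ± 0.474, adjusted p = 0.000554, 5.08-fold in means) and ZAT12 (1.99 ± 0.632, adjusted p = 0.0364, 3.90-fold). ZAT10 lay above all systemic libraries as well, at 1.93-fold, but did not pass (standard error 0.895 on the log2 scale, adjusted p = 0.503). The library numbers were taken to pair these leaves by their correlations, though no label gives the meaning of a number. With the number as a block AZF1 passed too (0.71). The ZAT12 call rested on single libraries: without Col local 8 min replicate 1, 2 or 3, or Col systemic 8 min replicate 2 or 3, the count was 1.

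At 30 min 5 of 9 members differed, all higher in Col local than in systemic leaves, against 50.4% of all tested genes called in either direction. Of the 19556 tested genes 4894 were called higher in local leaves. ZAT6 was 17.0-fold higher in means (4.08 ± 0.474, adjusted p = 3.70e-09), ZAT12 12.1-fold (3.64 ± 0.632, adjusted p = 8.58e-06), ZAT10 8.44-fold (3.11 ± 0.895, adjusted p = 0.00388), ZAT5 5.44-fold (2.44 ± 0.213, adjusted p = 3.64e-12) and AZF1 2.24-fold (1.17 ± 0.490, adjusted p = 0.0445). In each of these 5 genes all local libraries lay above all systemic ones. AZF1 no longer passed without Col local 30 min replicate 1, 2 or 3 or Col systemic 30 min replicate 2 or 3 (adjusted p of 0.0526 to 0.142). AZF2 (0.869-fold), ZAT18 (1.06-fold) and AZF3 (1.01-fold) overlapped between the leaves, as did ZAT7 (3.55-fold, 1.86 ± 0.998, adjusted p = 0.120).

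In myb30, 0 of 9 members differed between leaves at 0, 2 and 8 min by limma, against 0%, 0.0409% and 3.91% of all genes, with 0, 0 and 2 at an unadjusted p under 0.05. edgeR gave 0, 0 and 1 and DESeq2 gave 0 at each time. The leaves of myb30 were likewise taken as paired by number at 8 min, and with that block ZAT6 (1.55) and ZAT12 (1.38) passed. At 30 min 4 of 9 differed, against 42% of all genes called in either direction, with 4032 of 19556 called higher in local leaves. All 4 were higher in local leaves: ZAT6 (3.48 ± 0.474), ZAT12 (3.33 ± 0.632), ZAT10 (2.24 ± 0.895, adjusted p = 0.0425) and ZAT5 (2.02 ± 0.213). ZAT10 there did not pass without myb30 local 30 min replicate 1, 2 or 3 or myb30 systemic 30 min replicate 2 or 3 (adjusted p of 0.0508 to 0.151).

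**Figure D3:**
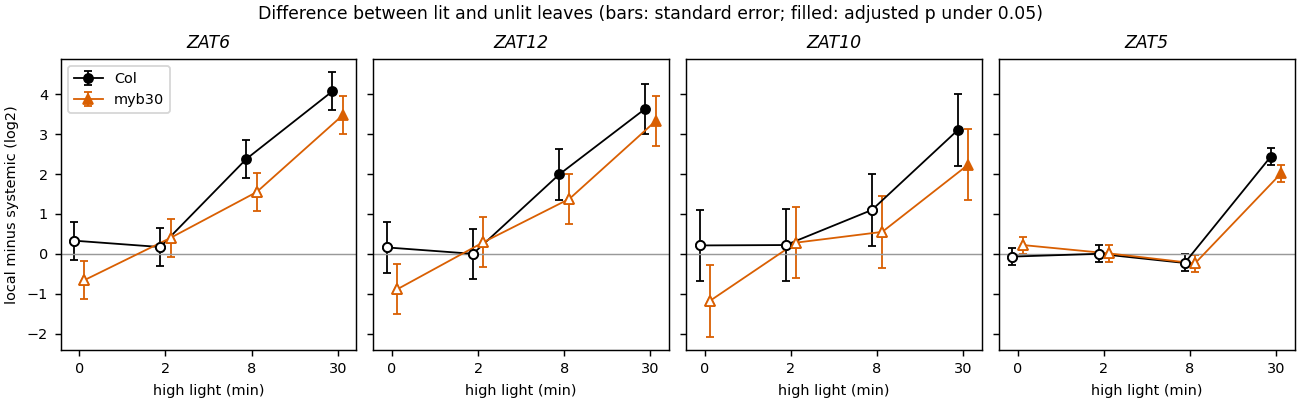
Local minus systemic log2 difference (y axis, ± standard error) of ZAT6, ZAT12, ZAT10 and ZAT5 against minutes of high light in Col (black circles) and myb30 (orange triangles), with filled symbols where the adjusted p was under 0.05. The first 3 genes differ by 2.24 to 4.08 at 30 min, and ZAT5 lies between -0.24 and 0.22 up to 8 min and at 2.44 and 2.02 at 30 min.

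ZAT5 was the only member called lower against 0 min. In Col it fell in both kinds of leaf over the first 8 min, and from 8 to 30 min it rose in lit leaves and fell further in unlit ones. In Col local leaves it stood at 1041, 1346 and 1260 at 0 min, at 761, 788 and 526 at 2 min, at 528, 501 and 429 at 8 min, and at 1248, 1449 and 1270 at 30 min. In Col systemic leaves it stood at 1051, 1334 and 1443, then at 838, 646 and 583, then at 612, 632 and 477, and at 30 min at 212, 269 and 248. The 2 and 8 min libraries lay below all of 0 min in both leaves, and at 30 min the local libraries overlapped 0 min while the systemic ones were the lowest of the series for this gene. The changes were -0.83 ± 0.213 (adjusted p = 0.0118), -1.32 (adjusted p = 2.00e-05) and 0.13 (adjusted p = 0.643) in local leaves. In systemic leaves they were -0.89 (adjusted p = 0.00640), -1.15 (adjusted p = 0.000278) and -2.38 (adjusted p = 3.64e-10), each with the same standard error. The local call at 2 min was lost without Col local 0 min replicate 2 or Col local 2 min replicate 3, and the systemic one without Col systemic 2 min replicate 3.

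In myb30 the change against 0 min was -0.62 ± 0.213 at 2 min (adjusted p = 0.144) and -1.14 at 8 min (adjusted p = 0.000181) in local leaves. In myb30 systemic leaves it was -0.41 (adjusted p = 0.998), -0.69 (adjusted p = 0.122) and, at 30 min, -1.53 (adjusted p = 1.40e-05), so ZAT5 did not pass there until 30 min. The step from 8 to 30 min, a comparison added after the data were seen, made the divergence of ZAT5 explicit. ZAT5 rose by 1.44 ± 0.213 in Col local leaves (adjusted p = 7.34e-07) and fell in Col systemic leaves (-1.23 ± 0.213, adjusted p = 0.000193), without overlap in either. In myb30 it rose by 1.43 ± 0.213 in local leaves (adjusted p = 1.10e-06), from 516, 743 and 522 to 1537, 1456 and 1740, and fell in systemic leaves (-0.84 ± 0.213, adjusted p = 0.0253), from 577, 912 and 629 to 372, 329 and 470. The difference between leaves in this step was 2.67 ± 0.301 for Col and 2.27 ± 0.301 for myb30 (adjusted p = 8.66e-09 and 3.69e-07), and both held under every alternative run. The fall in myb30 systemic leaves was lost without myb30 systemic 8 min replicate 2 and without myb30 systemic 30 min replicate 1 or 2.

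Over the family, the 8 to 30 min step gave 2 of 9 calls in Col local leaves (against 41.1% of all genes), 2 of 9 in Col systemic leaves (against 8.2%), 2 of 9 in myb30 local leaves (against 36.7%) and 2 of 9 in myb30 systemic leaves (against 2.2%). Beside ZAT5 these were ZAT18 in both leaves of Col, AZF2 in myb30 local leaves (-0.94 ± 0.325, adjusted p = 0.0216) and ZAT6 in myb30 systemic leaves. ZAT18 reached the filter only through its 30 min groups, and without it 1 of 8 passed in each leaf of Col. The systemic count in Col was 1 by DESeq2 and without Col systemic 8 min replicate 1 or 2 or Col systemic 30 min replicate 1 or 2. The myb30 local count was 1 without myb30 local 8 min replicate 1, and the myb30 systemic count was 1 without myb30 systemic 8 min replicate 2 or myb30 systemic 30 min replicate 1, 2 or 3. For the difference between leaves in the step, 1 of 9 passed in Col, against 25% of all genes, and 2 of 9 in myb30, against 20.3%, the second being ZAT6 (1.93 ± 0.670, adjusted p = 0.0363). The myb30 count was 1 without myb30 local 8 min replicate 1, 2 or 3, myb30 local 30 min replicate 2, myb30 systemic 8 min replicate 1 or 2, or myb30 systemic 30 min replicate 2 or 3.

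ZAT18, whose protein is closest to that of ZAT11, was nearly absent until 8 min and appeared at 30 min in lit and unlit leaves. Over the 3 libraries of a group it had 7 reads in Col local, 1 in Col systemic, 0 in myb30 local and 3 in myb30 systemic leaves at 0 min, and 298, 364, 258 and 161 reads at 30 min. In Col local leaves the normalised counts were 6.05, 0 and 0.973 at 0 min, 0, 0 and 16.7 at 8 min, and 153, 131 and 76.1 at 30 min, and in Col systemic leaves 0, 0 and 0.995, then 0, 11.7 and 17.0, and 195, 99.0 and 46.9. All 30 min libraries of both leaves lay above all earlier ones. ZAT18 reached the filter only through its 30 min groups, so its calls counted above are no support. Its changes at 30 min are given here as ratios without a test. The count ratio of 30 to 0 min in Col local leaves was 51.4, with a 95% interval of 24.7 to 129 that covers counting error only. In Col systemic leaves it was 351 (62.6 to 13910, on 1 read at 0 min), in myb30 systemic leaves 52.8 (17.7 to 259), and in myb30 local leaves the level was at least 97.0-fold higher (against a floor of 3 reads over the group). The bound and the ratios have different bases, so they give no order among these groups. The myb30 libraries of 30 min spread widely, with 223, 54.0 and 6.40 in local and 109, 40.8 and 7.97 in systemic leaves. In both leaves of Col and of myb30 replicate 3 was the lowest at 30 min.

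ZAT11 was also high at 30 min, at a lower level. Its normalised counts in Col local leaves were 0, 0 and 5.84 at 0 min, 9.27, 4.19 and 3.34 at 8 min, and 29.6, 26.3 and 40.0 at 30 min, and in myb30 local leaves 43.2, 45.8 and 35.2 at 30 min. In systemic leaves at 30 min they were 21.6, 12.4 and 7.35 in Col and between 13.3 and 26.6 in myb30. All 30 min libraries lay above all of 0 min in each of the 4 arms. Tested without the filter on low values, ZAT11 rose at 8 min in myb30 local leaves (2.57 ± 0.662, adjusted p = 0.00774) and at 30 min in Col local leaves (4.10 ± 0.662, adjusted p = 3.90e-06, count ratio 15.7 with an interval of 6.90 to 44.1), in Col systemic leaves (2.03 ± 0.662, adjusted p = 0.0225) and in myb30 local leaves (4.63 ± 0.662, adjusted p = 6.02e-07). In myb30 systemic leaves, with 2 reads at 0 min and 59 at 30 min, the count ratio was 29.0 (7.69 to 245, adjusted p = 0.000678). Local leaves held 2.32-fold more than systemic ones at 30 min in Col and 2.22-fold more in myb30, without overlap, but neither difference passed (adjusted p = 0.142 and 0.200).

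ZAT7 rose in lit leaves of Col, with a wide spread between libraries. It stood at 27.2, 30.6 and 101 at 0 min, at 691, 252 and 319 at 8 min (3.09 ± 0.998, adjusted p = 0.0203), and at 498, 112 and 204 at 30 min (2.33 ± 0.998, adjusted p = 0.0476), without overlap with 0 min at either time. The first call was lost without Col local 0 min replicate 1 or 2 or Col local 8 min replicate 1. The second was lost without Col local 0 min replicate 1 or 2 or Col local 30 min replicate 1 or 3. In systemic leaves of Col it stood at 135, 102 and 109 at 0 min and at 226, 41.1 and 132 at 8 min, which overlapped. In myb30 local leaves it reached 943, 141 and 660 at 8 min, from 96.8, 57.9 and 158, and did not pass (2.20 ± 0.998, adjusted p = 0.123). Library 2 was the lowest of its group for ZAT7 in 12 of 16 groups and for AZF1 in 13 of 16. ZAT7 lies beside AT3G46080, whose protein is 86.5% identical to it, and how reads shared by the pair were counted was not given in the sources used here, so both levels are uncertain. AT3G46080 stood at 12.3 ± 6.33 at 0 min and 43.9 ± 27.4 at 8 min in Col local leaves and did not pass (1.59 ± 0.967).

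The 3 AZF genes differed among themselves. AZF2 rose modestly in both leaves. It stood at 261, 272 and 441 in Col local leaves at 0 min, at 730, 554 and 696 at 8 min and at 740, 630 and 707 at 30 min, and at 306, 206 and 278, then 757, 419 and 619, and 986, 704 and 698 in systemic leaves. The 8 and 30 min libraries lay above all of 0 min in both, with changes of 1.05 ± 0.325 (adjusted p = 0.0151) and 1.13 (adjusted p = 0.00373) in local and 1.16 (adjusted p = 0.00972) and 1.59 (adjusted p = 0.000225) in systemic leaves. The local call at 8 min was lost without Col local 0 min replicate 1 or 2 or Col local 8 min replicate 1 or 3, and the systemic one without Col systemic 8 min replicate 1 and with the exchange (0.74). At 30 min in Col systemic leaves AZF2 stood at 3.02-fold its 0 min mean. AZF1 rose in local leaves at 30 min, from 89.8, 57.0 and 102 to 305, 244 and 333 in Col (1.84 ± 0.490, adjusted p = 0.00184) and from 70.3, 77.5 and 114 to 264, 333 and 384 in myb30 (1.91 ± 0.490, adjusted p = 0.00164). In systemic leaves at 30 min it stood at 162, 130 and 101 in Col, which overlapped the 111, 77.7 and 116 of 0 min. AZF3 passed in 0 of 40 comparisons by limma. Its 48 libraries ran from 78.7 to 161 with a median of 115, and its changes against 0 min lay between -0.04 and 0.39. In Col local leaves at 30 min it passed with quantile normalization (0.42), without the 3 outlying libraries (0.50), without Col local 0 min replicate 3 (0.50) and without Col local 30 min replicate 3 (0.54).

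In local leaves at 2 min, myb30 plants had more ZAT6 and AZF2 transcript than Col plants. In local leaves at 2 min ZAT6 stood at 346, 113 and 176 in Col and at 1208, 720 and 882 in myb30, and AZF2 at 343, 185 and 233 against 1047, 533 and 820. ZAT10 stood at 1062, 163 and 176 against 4800, 1920 and 3242, and ZAT12 at 151, 30.1 and 61.8 against 538, 279 and 407. In all 4 genes every myb30 library lay above every Col library, but the share of all tested genes that part in this way was not computed. ZAT6 (2.26 ± 0.474, adjusted p = 0.0196, 4.43-fold in means) and AZF2 (1.65 ± 0.325, adjusted p = 0.0125, 3.16-fold) passed, which is 2 of 9 members against 0.373% of all genes. ZAT12 (2.57 ± 0.632, adjusted p = 0.0563, 5.05-fold) and ZAT10 (3.31 ± 0.895, adjusted p = 0.0932, 7.11-fold) did not. The numbers were taken to pair the libraries here, though no label says so. With a number effect common to all 48 libraries as a block, ZAT12 passed as well. The count was 4 without Col local 2 min replicate 1, which was the highest Col library in each of these genes. It was 0 without Col local 2 min replicate 2 or 3 and without myb30 local 2 min replicate 1 or 3, and 0 with the compared groups fitted alone.

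In systemic leaves at 2 min ZAT10 stood at 591, 136 and 241 in Col and at 3983, 1382 and 3038 in myb30, again without overlap. ZAT6, ZAT12 and AZF2 did not overlap either, and the share of all genes without overlap was not computed here either. By limma 0 of 9 passed (4 at an unadjusted p under 0.05), against 0.0767% of all genes, with ZAT6 at 2.04 ± 0.474 (adjusted p = 0.0650) and ZAT10 at 3.25 ± 0.895 (adjusted p = 0.130). edgeR called 0 and DESeq2 called 2, ZAT6 and ZAT10. The 7 touch and handling genes moved with these 4 genes. They summed to 7592 ± 3707 in Col local and 22986 ± 8377 in myb30 local leaves at 2 min, and to 7422 ± 1424 and 18370 ± 7408 in systemic leaves, and their part in the genotype difference was not tested. In myb30 the level at 2 min did not pass between lit and unlit leaves, with local minus systemic differences of 0.28 ± 0.895 for ZAT10, 0.40 ± 0.474 for ZAT6 and 0.29 ± 0.632 for ZAT12.

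At 0, 8 and 30 min no member passed between the genotypes. In local leaves 0 of 9 passed at each of these times by limma, edgeR and DESeq2, with 0, 1 and 0 at an unadjusted p under 0.05, against 0.0102%, 0.0153% and 1.42% of all genes. In systemic leaves 0 of 9 passed by all 3 tools, with 0, 2 and 1 at that level, against 0%, 0.0102% and 0.726%. The change since 0 min, compared between genotypes, passed in 0 of 9 members in each of 6 comparisons by limma and edgeR. All genes gave 0%, 0% and 0.276% there in local leaves at 2, 8 and 30 min and 0%, 0% and 0.143% in systemic leaves. Members at an unadjusted p under 0.05 numbered 4, 0 and 0 in local and 1, 0 and 1 in systemic leaves. The 4 were ZAT6 (2.62, 95% interval 1.26 to 3.98), ZAT10 (4.00, 1.43 to 6.57), ZAT12 (3.13, 1.31 to 4.94) and AZF2 (1.77, 0.84 to 2.71). The outlying Col local 0 min replicate 3 was high in all 4 genes, which lowers the Col change and so raises these values. Under the alternatives they ran from 2.08 to 3.04 for ZAT6 and from 2.65 to 4.88 for ZAT10. For ZAT12 they ran from 2.30 to 3.72 and for AZF2 from 1.53 to 2.04. DESeq2 called ZAT10 in local leaves at 2 min, and ZAT6 passed in systemic leaves at 2 min with the libraries in doubt exchanged (3.13).

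**Figure D4:**
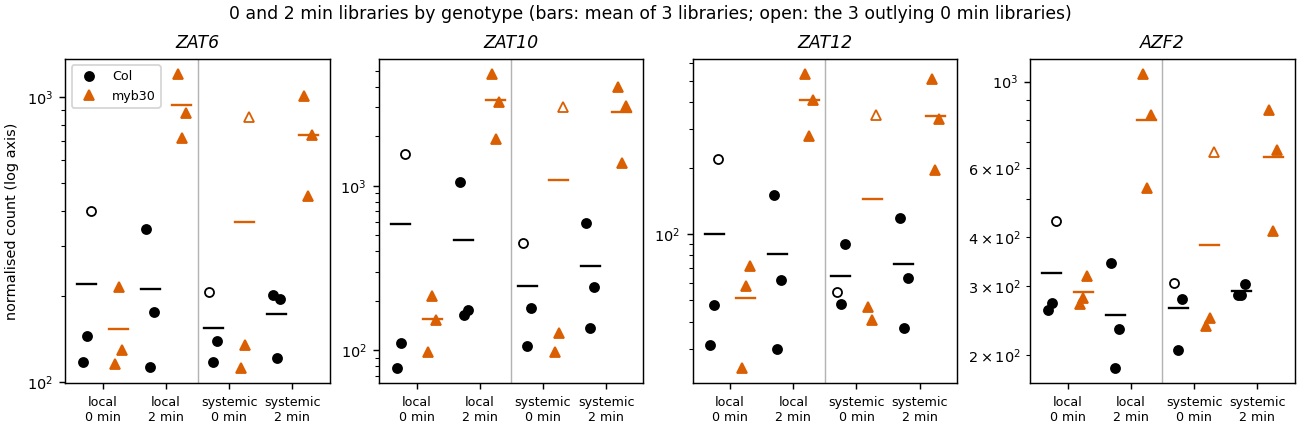
Normalised counts (log axis) of ZAT6, ZAT10, ZAT12 and AZF2 in the 0 and 2 min libraries of Col (black circles) and myb30 (orange triangles), with bars at the mean of 3 libraries and open symbols for the 3 libraries that stood apart at 0 min. At 2 min every myb30 library lies above every Col library of the same leaf in all 4 genes, and at 0 min the genotypes overlap. By limma 2 of 9 members passed between genotypes at 2 min in local leaves and 0 of 9 in systemic leaves.

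Members with alike proteins did not always have alike transcripts. Over the 16 group means the closest pair was ZAT6 and ZAT12 (Pearson r = 0.996 of mean log2 levels), whose proteins share 25.5% of aligned positions, followed by ZAT10 and ZAT12 (r = 0.960, 25.1%) and ZAT6 and ZAT10 (r = 0.940, 68.4%). ZAT10 and AZF3, at 59.6% identity, had r = 0.295, and ZAT7 and ZAT12, at 62.9%, had r = 0.849. AZF3 spanned only 1.40-fold across group means, so its r values rest on small differences. ZAT5 and AZF2 were the most opposed pair (r = -0.429). These values describe 16 points that share times and libraries, and ZAT11 is not among them. Outside the family, the tested genes most like ZAT6 were AT1G66090 (r = 0.986), AT5G64870 (0.982) and AGP1, an arabinogalactan protein gene (0.981), and the first 2 of these, with AT5G16200 (0.973), were also the nearest to ZAT12 (0.980 each). ZAT10 was closest to AT1G32920 (0.993) and to the ubiquitin ligase genes CMPG2 (0.969) and RDUF2 (0.968). ZAT18 was closest to RGL3, a DELLA growth repressor (0.986), PNC2, a peroxisomal nucleotide carrier (0.984), and RD26, a NAC factor of drought and abscisic acid responses (0.984). ZAT5 was closest to CGA1, a GATA factor of greening (0.983), the phospholipase gene NPC6 (0.982) and AT3G21690 (0.982). AZF2 was closest to ERF13 (0.972), AT1G19380 (0.967) and ZCF37 (0.961), AZF1 to PMZ (0.947), WRKY53 (0.940) and MYBR1 (0.935), ZAT7 to AT5G52760 (0.942), CML37 (0.931) and BCS1 (0.916), and AZF3 to AT4G30640 (0.805), AT1G28190 (0.755) and AT1G53625 (0.745).

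**Figure D5:**
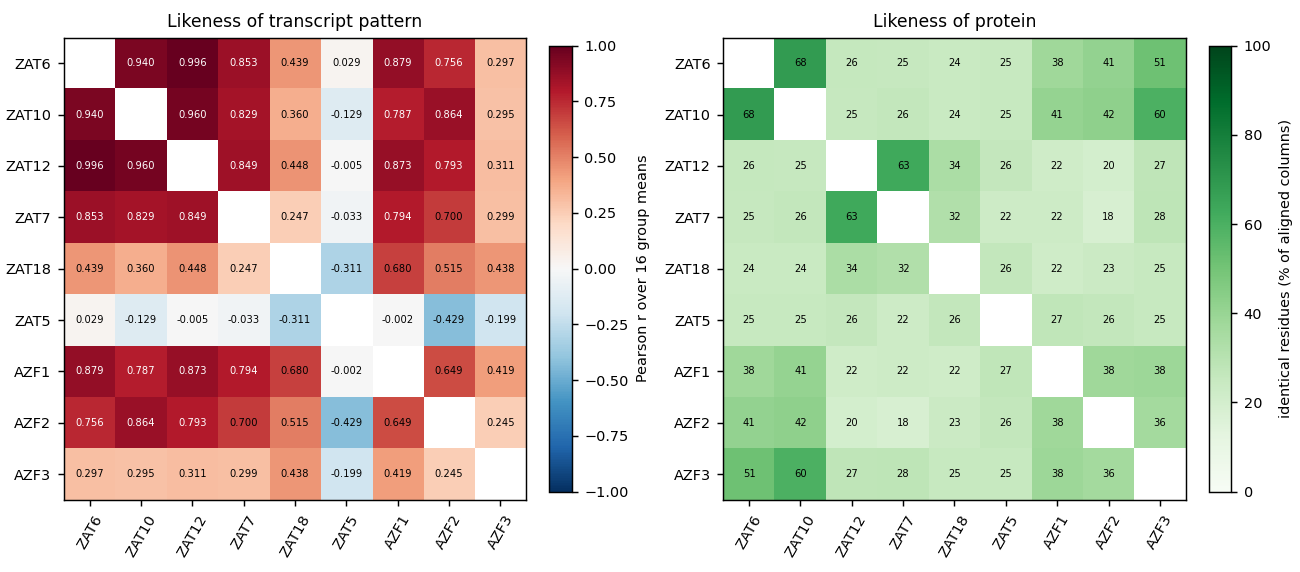
Pearson r of mean log2 levels over the 16 groups (left) and identical residues as a percentage of aligned columns (right) for each pair of the 9 tested members. ZAT6, ZAT10 and ZAT12 form the reddest block on the left with r of 0.940 to 0.996, while only the ZAT6 and ZAT10 pair of that block is dark on the right.

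Genes that act with or after these repressors were counted from lists. Of 8 tested kinase, oxidase and CAMTA genes, which relay calcium and reactive oxygen signals to promoters of this kind, 3 rose and 0 fell in Col local leaves at 8 min and 5 rose and 2 fell at 30 min (median 0.11 and 0.34), against 26% and 53.7% of all genes. MPK3 (1.60 ± 0.275) and RBOHD, the oxidase of the systemic oxygen signal (0.66 ± 0.236), were the highest at 8 min, when the calmodulin-binding factor CAMTA3 also rose (0.46 ± 0.128). In Col systemic leaves 2 rose at 8 min (CAMTA3, 0.42 ± 0.128, and CAMTA1, 0.29 ± 0.0679), and at 30 min 5 rose and 1 fell, against 22.4% and 34.7% of all genes. Of the 6 EAR co-repressor genes, 1 fell at 8 min in Col local leaves (against 26% of all genes), and 1 rose and 3 fell at 30 min (against 53.7%), by small amounts: TPR4 was at 0.46 ± 0.0761, TPR1 at -0.33 ± 0.0766, TOPLESS (TPL) at -0.31 ± 0.0948 and TPR2 at -0.26 ± 0.0828. The 12 other C2H2 genes of this type were mostly low, with 6 tested, of which 0 rose and 2 fell in Col local leaves at 30 min, against the same 53.7% (AT2G45120, -1.33 ± 0.334, and AT2G28710, -0.77 ± 0.263).

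Of the 10 genes reported downstream of ZAT6, ZAT7, ZAT10 or ZAT12, 6 rose and 0 fell in Col local leaves at 8 min and 9 rose and 1 fell at 30 min (median 0.62 and 1.66), against 26% and 53.7% of all genes called in either direction. At 30 min in Col local leaves the highest were the ascorbate peroxidase gene APX2, from 10.2 ± 3.13 to 14227 ± 606, and the cold-response factor CBF1 (2.74 ± 1.07, adjusted p = 0.0294). APX2 reached the filter through lit leaves at 30 min, so its levels are given without a test and its calls in these counts are no support. The lowest were WRKY70 (-1.34 ± 0.365) and the glutathione synthesis gene GSH1 (0.27 ± 0.0651). In Col systemic leaves 3 rose and 1 fell at 8 min (against 22.4% of all genes called) and 4 rose and 1 fell at 30 min (against 34.7%). The highest at 8 min were CBF1 (5.61 ± 1.07) and CBF3 (3.22 ± 0.486). The gene called lower was APX2, which went from 8.98 ± 5.58 to 3.45 ± 1.97 at 8 min (-1.12 ± 0.393, adjusted p = 0.0367) and 4.12 ± 2.83 at 30 min (-1.04 ± 0.393, adjusted p = 0.0370). These means lie under 10, the level of the filter, which APX2 reached through lit leaves at 30 min. The calls of a fall thus rest on few reads and are no support. APX1 rose in local leaves at 30 min (2.32 ± 0.127) and stood at 0.02 ± 0.127 in systemic ones.

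Genes of the SAUR list, a family reported as repressed by AZF1 and AZF2, fell in lit leaves. Of 12 tested members 11 fell at 8 min and 12 at 30 min in Col local leaves (median -1.10 and -2.02), against 26% and 53.7% of all genes called in either direction. In myb30 local leaves 10 and 12 fell, against 18.7% and 44.1%. In myb30 systemic leaves 5 fell and 0 rose at 30 min (median -0.39), against 11.6%. In Col local leaves at 30 min the lowest were SAUR22 (-3.11 ± 0.188, adjusted p = 2.00e-16) and SAUR19 (-2.55 ± 0.255), and the least changed were AT1G29430 (-1.61 ± 0.142) and AT1G29420 (-1.79 ± 0.373). In Col systemic leaves at 30 min 1 rose and 2 fell (median -0.10), against 34.7%, and SAUR19 was the one that rose (1.37 ± 0.255, adjusted p = 7.08e-05). Several SAUR genes are near-identical neighbours whose reads can be shared, so their single values are uncertain.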

How the data were processed

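The deposited table holds normalized counts (a signal unit): per the submitters' processing notes, reads were handled with cutadapt 1.18, FastQC 0.11.7, STAR 2.4.0.1 and DESeq2 1.20.0 on TAIR10. The counting step, its use of strand and its treatment of reads shared by similar genes were not given in the sources used here. Dividing each deposited value by its library's smallest step gave whole reads for 100.0% of 1084756 values above 0 (tolerance 1e-06), with size factors of 0.776 to 1.171, so edgeR 4.0.16 (quasi-likelihood, TMM) and DESeq2 1.42.0 could be run on reads as alternatives. Columns that matched no sample numbered 0. In all 6 Col libraries titled 30 min the time label reads 0 min; the titles were followed, and every Col result at 30 min rests on that choice.

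The main test was limma 3.58.1 (empirical Bayes with trend, R 4.3.3) on log2(normalised count + 1), with 16 group means fitted to 48 libraries, genes of mean 10 or more, and Benjamini-Hochberg adjustment within each comparison. Comparisons numbered 40 and those of 1 arm against 0 min share their 0 min libraries. The steps from 8 to 30 min and their difference between leaves (6 of the 40) were added after the data were seen. Scripts were tested on simulated data. Alternatives were both count tools, pseudocounts of 0.5 and 8, no filter, quantile normalization, the compared groups alone, the library number as a block, each library left out, the 3 outlying libraries left out and the libraries in doubt exchanged. The numbers were taken to pair the libraries where all 3 same-numbered correlations of deviations exceeded 0.1, which held in 11 of 32 comparisons, and no label gives the meaning of a number.

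All 10 members are named, with the 3 tested genes nearest to each, and for lists the 2 highest and 2 lowest called genes or those given by symbol. The members and lists were chosen with earlier results of these data known. Intervals for low counts cover counting error only. Promoters, exon lengths and predicted proteins came from RefSeq TAIR10.1, in which all 10 members matched by locus, and proteins were aligned globally with Biopython 1.88.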

Additional observations from a re-analysis of the deposited data

Results flagged for a closer look

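The step from 8 to 30 min differed between local and systemic leaves for ZAT5 in both genotypes, by 2.67 ± 0.301 in Col and 2.27 ± 0.301 in myb30 on the log2 scale (limma, adjusted p = 8.66e-09 and 3.69e-07). It also differed for ZAT6 in myb30, by 1.93 ± 0.670 (adjusted p = 0.0363). That ZAT6 value ran from 1.71 to 2.26 under 20 alternatives and passed in 11 of them. In Col the ZAT6 difference did not pass by the main test. Its values under 20 alternatives ran from 1.50 to 1.90 and passed in 3. Each difference between leaves was itself tested, in a comparison added after the data were seen. For ZAT5 all local libraries rose past those of 8 min and all systemic ones fell below them in both genotypes. ZAT6 in myb30 changed little in local leaves, from a mean of 4035 to 3690, and fell from 1405 to 340 in systemic leaves.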

How the results depend on the processing

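Of 360 pairs of a tested member and a comparison 68 passed. Over 5764 values under the alternatives 5568 stayed on the same side of the threshold with the same direction or uncalled, 105 lost a call, 91 gained one, 0 calls reversed, and 332 uncalled values changed sign. Of 642 counts 71 moved by over 1.5 times, and the cause was not tested.

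With the libraries in doubt exchanged, the count of members was 2 in Col systemic leaves at 8 min, 2 and 5 in myb30 systemic leaves at 2 and 30 min, and 1 for genotype by time in systemic leaves at 2 min. Without the 3 outlying libraries it was 5 in Col systemic leaves at 30 min and 4 and 4 in myb30 systemic leaves at 2 and 30 min. With the compared groups alone it was 5 in Col systemic leaves at 30 min, 0 in myb30 systemic leaves at 8 min, 2 between myb30 leaves at 8 min, 0 between genotypes in local leaves at 2 min, 0 for the 8 to 30 min step in myb30 systemic leaves and 4 for its difference between leaves in Col. DESeq2 gave 8 and 2 in myb30 local and systemic leaves at 8 min, 2 between genotypes in systemic leaves at 2 min, 1 for genotype by time in local leaves at 2 min, and 1 and 4 for the step in Col and myb30 systemic leaves. edgeR gave 2 in myb30 systemic leaves at 8 min, 1 between myb30 leaves at 8 min and 2 for the leaf difference of the step in Col. A pseudocount of 8 gave 1 between myb30 leaves at 8 min, a pseudocount of 0.5 gave 1 for the step in Col systemic leaves, and no filter gave 1 there and 1 for the leaf difference of the step in myb30.

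With the replicate block the count was 4 in myb30 systemic leaves at 30 min, 2 between myb30 leaves at 8 min, 2 between genotypes in systemic leaves at 2 min, and 3 and 4 for the leaf difference of the step in Col and myb30. Where the numbers were taken to pair the libraries, the block changed no call other than those given beside the results.

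With 1 library left out, counts ran from 0 to 1, 4 to 7 and 6 to 8 in Col local leaves at 2, 8 and 30 min, and from 0 to 1, 3 to 5 and 3 to 3 in Col systemic leaves. In myb30 they ran from 1 to 5, 5 to 7 and 5 to 6 in local leaves and from 0 to 3, 0 to 5 and 1 to 4 in systemic leaves. Between leaves they ran from 1 to 2 and 4 to 5 in Col at 8 and 30 min and 3 to 4 in myb30 at 30 min, and between genotypes from 0 to 4 in local leaves at 2 min. For the step they ran from 1 to 2 in Col systemic, myb30 local and myb30 systemic leaves and for the leaf difference in myb30. With the 250 bases before the start alone, ACGTG stood in 2 members in place of 5. ZAT11 and ZAT18 held 0 to 11 reads per group at 0 min, which limits their folds.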
